A study of Mus musculus with 360 samples.

Results

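The cells described here are the 51 mouse cochlear cells that the authors placed in their cluster 2 and named Reprogrammed Hair Cells, divided by whether each held RNA of several genes of a working hair cell. A cell was counted as mature-like when its deposited counts held at least 1 unique molecular identifier (UMI, the tag of 1 captured RNA molecule) of at least 2 of the 5 genes Otof, Tmc1, Lhfpl5, Slc17a8 and Strc. Of the 51 cells, 17 met this rule (33.3%, exact 95% interval 20.8 to 47.9%) and the remaining 34 form the comparison class, in a series of 360 cells. The classes were therefore chosen by measured values, and the 5 defining genes are given as a description and kept out of every count of differing genes.

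All 51 cells came from GAP animals, which carried Fbxo2CreERT2, a tamoxifen-activated Cre tied to the Fbxo2 gene, with Rosa26-tdTomato, a red reporter, and Rosa26-GAP, named for Gfi1, Atoh1 and Pou4f3. Control animals carried Fbxo2CreERT2 and Rosa26-tdTomato without Rosa26-GAP and gave 180 cells, none of them in cluster 2. Animals of both groups received tamoxifen at 3 weeks, and cells were freed with papain at 5 weeks and sorted by tdTomato and EpCAM fluorescence into plates. Which cells could enter therefore depends on where the Fbxo2-linked Cre acted and on that sort. The number of animals is not given in the sources used here. The GAP cells carry the letters C and D in their titles, read here as 2 plates, and both plates hold GAP cells only.

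Hair cells convert sound-driven movement into electrical signals: an actin-filled bundle of stereocilia, joined by fine links, opens a mechanotransduction channel, and ribbon synapses at the base of the cell release glutamate. The surrounding supporting cells hold the hair cells in place, couple through gap junctions and secrete parts of the tectorial membrane. The transcription factor Atoh1 starts hair cell fate, and Gfi1 and Pou4f3 are needed for the cells to differentiate and survive. The mature mammalian cochlea does not replace lost hair cells on its own.

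Of the plate C cells of cluster 2, 10 of 20 were mature-like (50%, interval 27.2 to 72.8%), and of the plate D cells 7 of 31 (22.6%, 9.59 to 41.1%). The mature-like cells held between 18019 and 41457 UMIs with a median of 31608, and the others between 11514 and 44672 with a median of 24849. A deeper cell has more chances to show a UMI of a defining gene. Each cell was thinned at random to 8000 UMIs before any level was compared, but the classes stayed as set on the deposited counts. Applied to the thinned counts, the rule was met by 10 cells, and over the 51 cells total UMIs and the number of defining genes had a rank correlation of 0.40, a description of cells that share plates. At equal depth the mature-like cells held a median of 3166 genes and the others 3030. In the deposited counts, mitochondrially encoded genes took a median of 4.07% and 4.19% of the UMIs. There is 1 GAP group and cells are not replicates of it, so no test between the classes is given. Every interval below covers counting error alone, and values of plates C and D stand beside the main results.

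Among the defining genes, Otof, the calcium sensor of transmitter release in hair cells, gave 384 UMIs in the cluster, of which 376 lay in mature-like cells. Tmc1, which forms the pore of the transduction channel, had a UMI in all 17 mature-like cells and in 6 of the others. Lhfpl5, a partner of that channel, had 99.3% of its UMIs in mature-like cells, and 3 cells held 82.1% of all. Slc17a8, the transporter that fills synaptic vesicles with glutamate, was seen in 9 mature-like cells and 1 other. Strc, which encodes stereocilin, a protein that joins neighbouring stereocilia, was seen in 7 mature-like cells and 2 others. All 5 genes together were found in 2 cells, both from plate C.

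The 17 cells just outside the rule, with 1 defining gene, held 1 to 3 UMIs of that gene and 15 of them held a single UMI. The 4 cells just inside, with 2 defining genes, held 2 to 21 UMIs with a median of 12.5. Another 17 cells had none of the 5 genes, while 7, 4 and 2 cells had 3, 4 and 5 of them. When the class was set by the other four genes alone, Otof stood at 741 CPM (the summed UMIs of a gene in a class, scaled so that all genes add up to the same total in each class) in the 14 cells that still passed and at 77.7 CPM in the rest, a ratio of 9.54 (5.95 to 15.9). Tmc1, left out in the same way, stood at 269 CPM in 13 cells and 13.2 CPM in the rest, a ratio of 20.5 (7.16 to 80.3). Leaving out Lhfpl5 or Strc gave classes of the same size as the full rule, 17 and 34 cells. These values describe how the defining genes go together and give no separate support for the classes.

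Beyond the defining genes, the mature-like cells held RNA of many more hair cell genes. Of the lists of bundle, channel, synapse, calcium and regulatory genes combined, a mature-like cell showed 28 genes with a UMI at the lowest, 53 at the median and 68 at the highest after thinning. The other cells showed 26, 31 and 39. The classes overlapped in 2 mature-like cells, and the remaining 15 lay above the highest of the others. In plate C the medians were 55.5 and 30, and in plate D 50 and 31.

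The number did not climb evenly with the number of defining genes. Cells with 0 and with 1 defining gene had the same median of 31 hair cell genes, whereas cells with 2, 3, 4 and 5 had medians of 45, 46, 58.5 and 64.5. The lowest of the 4 cells with 2 defining genes showed 33, within the range of the others. Both cells that fell within that range had 2 or 3 defining genes, and all 6 cells with 4 or 5 lay at 53 or more. Across cells, the rank correlation of total UMIs with hair cell genes at equal depth was 0.20 over all 51 cells.

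**Figure D1:**
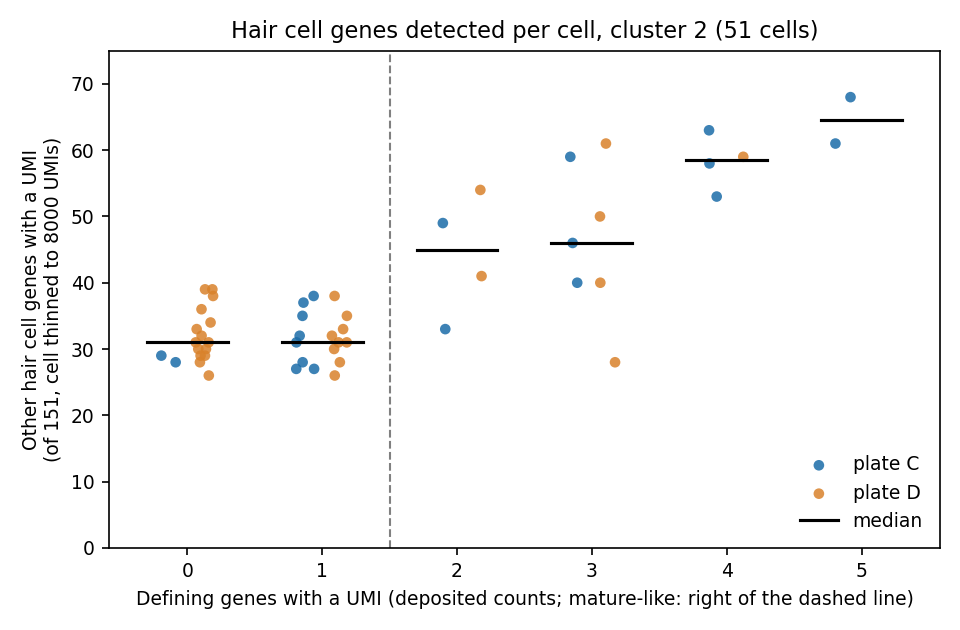
Hair cell genes with a UMI in each cluster 2 cell after thinning to 8000 UMIs (vertical axis, the 5 defining genes left out) against the number of defining genes in its deposited counts (horizontal axis). Points are cells coloured by plate, bars are medians, and the dashed line is the rule: the medians are 31 at 0 and 1 defining gene and 45 or more from 2 upward.

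Across the genome, 5608 genes other than the defining genes reached 50 CPM in a class. A gene was called higher or lower when the classes differed at least 2-fold, after adding 20 CPM to both, at least 20% of the cells and 3 cells of the higher class had a UMI, no single cell of the higher class held more than 33.3% of that class's UMIs of the gene, and plates C and D differed in the same direction. By this rule 421 genes were higher in the mature-like cells, 7.51% of those at that level, and 437 were lower, 7.79%. The median log2 ratio of all 5608 genes was 0.07. No gene kept the classes fully apart cell by cell, in either direction.

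Of the 15 highest ratios, 7 belonged to genes in the lists of the bundle and its links. Cdh23 (chr10:60302748-60696490, minus strand, GENCODE on GRCm38) encodes cadherin 23, which forms the upper part of the tip link that pulls on the transduction channel. Its summed level was 434 CPM in the mature-like cells, with a UMI in 11 of 17, and no UMI was left in the others after thinning. In the unthinned counts Cdh23 stood at 447 and 14.5 CPM. Ptprq (chr10:107517049-107720051, minus strand), a receptor-like phosphatase of the shaft connectors between stereocilia, gave 0, 11 and 34 UMIs per mature-like cell at the lowest, median and highest, and 0, 0 and 5 in the others. Its level was 1471 against 51.5 CPM, 28.6-fold (16.6 to 53.2), and the plates gave nearly the same log2 ratio, 4.45 in C and 4.31 in D. Myo15 (chr11:60469339-60528369, plus strand), the motor that carries length-setting proteins to stereocilia tips, gave 0, 4 and 17 UMIs per mature-like cell and 0, 0 and 2 in the others. It was 34.4-fold higher (14.2 to 108.6), and plate D had the larger log2 ratio, 4.53 against 3.57 in plate C.

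Also among these 15 was Loxhd1, a stereocilia protein gene, at 169.1 against 3.68 CPM. The Loxhd1 difference was carried by plate C, where the log2 ratio was 3.88, against 0.59 in plate D. Piezo2, a mechanically gated channel found at the hair cell apex, stood at 213 CPM against no UMI after thinning, and again plate C was higher, with 338 CPM against 35.7 CPM in plate D. Elmod1, needed for stereocilia to keep their shape, stood at 110 CPM against no UMI in the others, whose deposited counts hold none either. Genes outside those lists included St8sia2, a polysialic acid transferase (456 against 3.68 CPM), Ap3b2, a vesicle adaptor subunit (257 against 7.35 CPM), Tnc, the matrix protein tenascin C (368 against 18.4 CPM), Apba1, a presynaptic adaptor (463 against 40.4 CPM), Spon1 (500 against 51.5 CPM), the long noncoding RNA Miat (1015 against 128.7 CPM) and Tmem229a (287 against 25.7 CPM). In a different random thinning and in the unthinned sums, all 15 remained at least 2-fold higher, the unthinned log2 ratios running from 2.06 to 4.44.

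**Figure D2:**
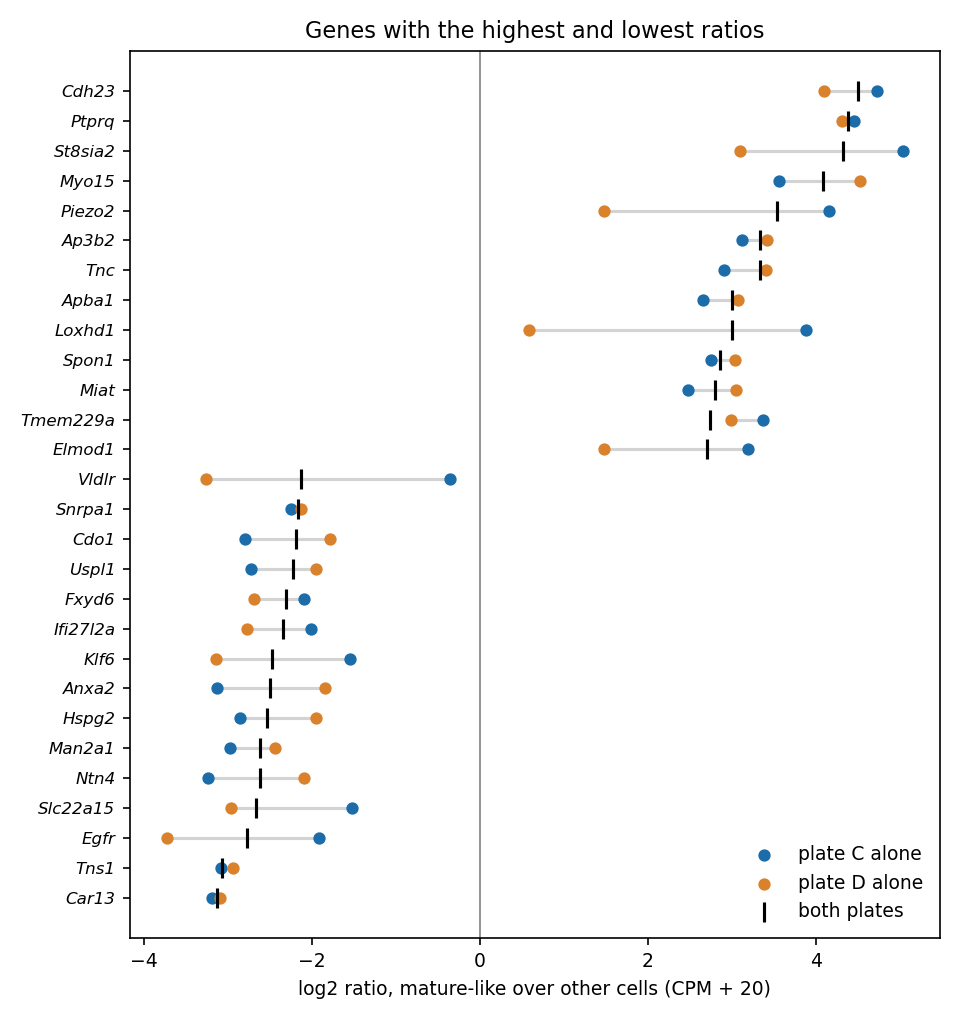
Log2 ratio of the summed level in mature-like over other cells (horizontal axis, 20 CPM added to both) for genes among the 15 highest and for the 15 lowest, with plate C alone, plate D alone and both plates. All genes plotted lie on the same side of 0 in both plates, which the rule for a called gene requires. The plates lie far apart for Loxhd1 and Vldlr.

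To show what lies before genes that were higher together, the 250 bases before the gene start were read for 2 of them and for a defining gene from the RefSeq promoter table (GRCm38.p6), in which 8 of the 15 highest genes have an entry. Capitals mark CAGCTG, an E-box of the kind that Atoh1 and related factors can bind and that reads alike on both strands. The sequences are shown 5′ to 3′ along the gene's strand for Myo15 (chr11:60469089-60469338, plus strand), Cdh23 (chr10:60696491-60696740, minus strand) and the defining gene Lhfpl5 (chr17:28575469-28575718, plus strand).
Myo15: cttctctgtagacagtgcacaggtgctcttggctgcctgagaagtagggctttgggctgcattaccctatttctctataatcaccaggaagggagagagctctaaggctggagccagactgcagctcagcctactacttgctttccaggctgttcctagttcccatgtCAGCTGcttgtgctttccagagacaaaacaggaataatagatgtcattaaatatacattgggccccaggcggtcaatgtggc
Cdh23: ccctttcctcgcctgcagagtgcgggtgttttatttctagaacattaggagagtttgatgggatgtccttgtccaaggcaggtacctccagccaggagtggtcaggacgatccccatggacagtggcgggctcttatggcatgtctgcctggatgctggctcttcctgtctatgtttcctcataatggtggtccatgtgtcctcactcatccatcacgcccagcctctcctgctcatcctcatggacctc
Lhfpl5: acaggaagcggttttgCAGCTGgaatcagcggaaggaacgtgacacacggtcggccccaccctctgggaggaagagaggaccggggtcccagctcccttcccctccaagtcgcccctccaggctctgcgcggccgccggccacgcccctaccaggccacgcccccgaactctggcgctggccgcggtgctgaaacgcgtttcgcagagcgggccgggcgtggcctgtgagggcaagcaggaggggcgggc
Myo15 had 1 match, starting 82 bases before the gene start, Lhfpl5 had 1, starting 234 bases before it, and Cdh23 had none in this window. The promoters in the table of the defining genes Tmc1, Slc17a8 and Strc held no CAGCTG. The sequences shown therefore do not stand for the defining genes or for the 15 highest genes as a set. Over promoters of 300 bases, 250 before and 50 after the start, CAGCTG was present in 16.3% of all 32851, in 14.4% of those of genes at 50 CPM or more, in 19.5% of those of genes called higher and in 15.8% of those of genes called lower. A second E-box form, CAGATG searched on both strands and whose matches cannot overlap those of CAGCTG, was present in 17.2%, 10.5%, 14.7% and 9.43% of the same sets. Among the 15 genes with the highest ratios, 8 had promoters in the table, 9 in all, and CAGCTG was present in 1 of them (11.1%) and CAGATG in 0. These are counts of letters, given without a test.

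Grouped by role, the lists of hair cell genes leaned one way. Of 70 genes that reached 50 CPM in the 5 lists of bundle, link, synapse, calcium and channel genes, 29 were called higher and 1 lower, and their median log2 ratio was 1.23, with 1.54 in plate C and 0.85 in plate D. Set beside this are the 7.51% of all genes called higher and their median of 0.07. These lists and the rule's 5 genes describe the same kind of cell, so the direction of the lists is not independent of how the cells were chosen.

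Of 23 bundle myosin and actin genes, 11 were called higher and none lower (median log2 ratio 1.24). Myo6, the minus-end-directed motor at the base of the bundle, was present in every cell of both classes, with 3, 17 and 25 UMIs per mature-like cell and 1, 5.5 and 19 in the others. Its level was 1846 against 794 CPM, 2.32-fold (1.93 to 2.80). Myo7a, which tensions the tip link, stood at 735 against 254 CPM, 2.90-fold (2.11 to 4), with a larger log2 ratio in plate C (2.38) than in plate D (1.20). The tip complex was represented by Myo15, Whrn and Eps8l2, all called higher, and the rootlet protein gene Triobp stood at 1081 against 776 CPM without meeting the rule.

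Of 14 genes of the transduction channel and the bundle links, 9 were called higher and 1 lower. Their log2 ratios had a median of 1.61, with 2.24 in plate C and 1.10 in plate D. Cib2, the calcium-binding subunit of the channel, stood at 699 against 276 CPM, 2.53-fold (1.85 to 3.48). Tmie and Tomt, further genes needed for the channel to assemble, were called higher as well. Pcdh15, the lower part of the tip link, stood at 324 against 206 CPM and did not meet the rule. The member called lower was Ush1c, which encodes the scaffold harmonin, at 29.4 against 147.1 CPM with 4 and 40 UMIs, lower in both plates.

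At the synapse, 6 of 14 listed genes were called higher and none lower (median log2 ratio 0.87, with 1.42 in plate C and 0.60 in plate D). They included Cabp2 and Cacna1d, a regulator and the pore of the calcium channel that drives release, and Syt13, Syt14 and Stx3 of the vesicle machinery. Cabp2 gave 0, 2 and 11 UMIs per mature-like cell and 0, 0 and 4 in the others, 6.71-fold (3.85 to 12.3). Pclo, a scaffold of the ribbon, stood at 772 against 629 CPM and did not meet the rule.

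Otof and Slc17a8, which the rule used, are known as genes of inner hair cells, so the classes were chosen partly on genes of that subtype. Of 6 inner hair cell genes at 50 CPM or more, Cabp2, Brip1 and Shtn1 were called higher, and the list's median log2 ratio was 1.97 (2.27 in plate C, 1.62 in plate D). Brip1 was 3.03-fold higher (2.19 to 4.22) and Shtn1 6.73-fold (4.13 to 11.4). Of 5 outer hair cell genes, none was called in either direction, and the median was 0.36, or −0.38 over those at 100 CPM or more. With 7.51% of all genes called higher, a list of 5 genes with none called is near that share. Of the 5 outer hair cell genes, 3 were higher in both plates, among them Bcl11b at 66.2 against 7.35 CPM, and 2 were lower in both. After thinning, 5 of 18 listed outer hair cell genes had no UMI in either class, as had 5 of 13 inner ones outside the rule. Slc26a5, the outer hair cell motor prestin, and Ocm, a calcium buffer of the same cells, were among the absent outer ones. The difference between the subtype lists was not tested.

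Of 12 calcium buffers and pumps, Anxa4 and the sodium-calcium exchanger gene Slc8a2 were called higher and none lower. Of 7 ion channels and receptors, Kcnh6 was called higher, and the rest included Kcna10 (log2 ratio 1.70) and Chrna9, a subunit of the receptor for efferent input (log2 ratio 2.06), which did not meet the rule. Of 12 regulators of hair cell transcription and splicing, Rbm24, a splicing factor of hair cell transcripts, Rfx3, Lmo1 and Runx1t1 were called higher. Rbm24 was 8-fold higher (4.3 to 16), with UMIs in 82.4% of mature-like and 14.7% of other cells. Beside these counts stand the 7.51% of all genes called higher. The few called calcium and channel genes are not read as results about those lists.

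Of 11 early hair cell and Notch ligand genes, Jag2, a Notch ligand of young hair cells, was called higher (3.69-fold, 2.25 to 6.2), as was Rasd2. Summed, the early list stood at 5015 CPM in the mature-like cells against 2434 CPM in the others, so it was not lower in the class named mature-like. By plate the sums were 4337.5 against 3862.5 CPM in C and 5982 against 1839 CPM in D. The list's median log2 ratio was 0.98 and depended on the plate, at −0.15 in C and 0.75 in D. Pcp4 is an example, with 913 against 1013 CPM in plate C and 1268 against 57.3 CPM in plate D. The cell cycle inhibitor gene Cdkn1b was called lower, at 117.6 against 268 CPM. Over all genes, 7.51% were called higher and 7.79% lower.

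The 3 reprogramming factors did not share 1 direction. Counts of these genes do not separate transcripts of the transgene from those of the native gene. Atoh1 gave 0, 6 and 11 UMIs per mature-like cell and 0, 4 and 21 in the others, and its level was 706 against 801 CPM, a ratio of 0.88 (0.69 to 1.12). Gfi1 was at 213 against 180 CPM, with log2 ratios of −1.16 in plate C and 1.43 in plate D. Pou4f3 gave 0, 8 and 20 UMIs per mature-like cell and 0, 2 and 12 in the others, and was called higher at 890 against 379 CPM, 2.35-fold (1.79 to 3.09), with log2 ratios of 0.72 and 1.56 in plates C and D. Fbxo2, whose regulation drives the Cre, stood at 412 against 636 CPM, and Epcam, the sort marker gene, at 140 against 243 CPM, and neither had the same direction in both plates.

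**Figure D3:**
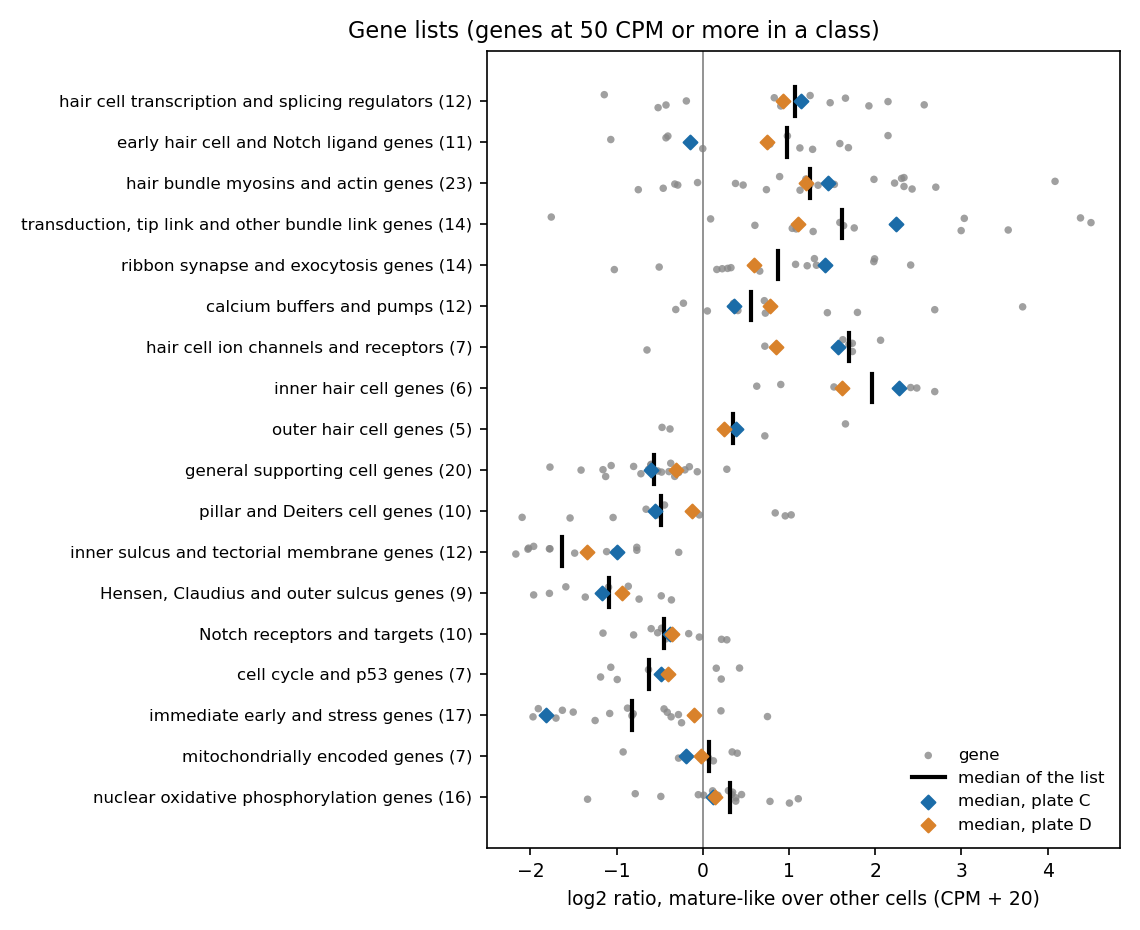
Log2 ratio of mature-like over other cells (horizontal axis, 20 CPM added to both) for each gene of 18 lists at 50 CPM or more in a class, with the number of genes after each name. Grey points are genes, black bars list medians, and diamonds the medians in plates C and D: the list medians of bundle, link, synapse and inner hair cell genes lie to the right of 0 and those of the supporting cell lists to the left.

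Of 47 supporting cell genes at 50 CPM or more, from 4 lists of supporting cell types, 16 were called lower and 1, the cadherin gene Cdh4, higher, and the median log2 ratio was −0.74 (−0.81 in plate C, −0.58 in plate D). The 7.79% of all genes called lower stand beside this count. Summed over 78 such genes, they took 0.625%, 1.46% and 3.86% of a mature-like cell's UMIs at the lowest, median and highest, and 1.06%, 3% and 5.51% in the others, so the classes overlapped over most of their range.

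Genes of the inner sulcus and the tectorial membrane had the lowest list median, −1.63, and 8 of 12 were called lower and none higher. Epyc (chr10:97644068-97682454, plus strand), a small proteoglycan of non-sensory cochlear cells, gave 0, 2 and 53 UMIs per mature-like cell and 0, 21.5 and 76 in the others. Its level was 765 against 3037 CPM, 3.97-fold lower (3.23 to 4.92). Otogl, a tectorial membrane protein gene, was 5.12-fold lower (2.48 to 12.3). Of 9 Hensen, Claudius and outer sulcus genes, 5 were called lower, among them Clu, the secreted chaperone clusterin, with 1, 7 and 75 UMIs per mature-like cell and 1, 30 and 130 in the others. Clu had a UMI in every cell of both classes and was 3.03-fold lower (2.62 to 3.53). Some genes, Epyc and Fst among them, belong to both of these lists.

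Of 20 general supporting cell genes, Gjb2, the gap junction protein connexin 26, Hey2, Id3 and Krt18 were called lower and none higher. Gjb2 gave 0, 0 and 21 UMIs per mature-like cell and 0, 5 and 39 in the others, 3.59-fold lower (2.54 to 5.22). S100a1 and Cldn9 of the same list did not meet the rule, at 6662 against 8625 CPM and 934 against 1232 CPM. Of 10 pillar and Deiters cell genes, Lgr5, a Wnt-responsive receptor, and Cd44 were called lower and Cdh4 higher. That list's median log2 ratio was −0.49 (−0.56 in plate C, −0.12 in plate D). Lgr5 stood at 471 against 989 CPM, with log2 ratios of −0.21 in plate C and −1.21 in plate D. Of 10 Notch receptors and targets, Hey2 alone was called. With 7.79% of all genes called lower, the few called pillar, Deiters and Notch genes are not read as results about those lists.

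**Figure D4:**
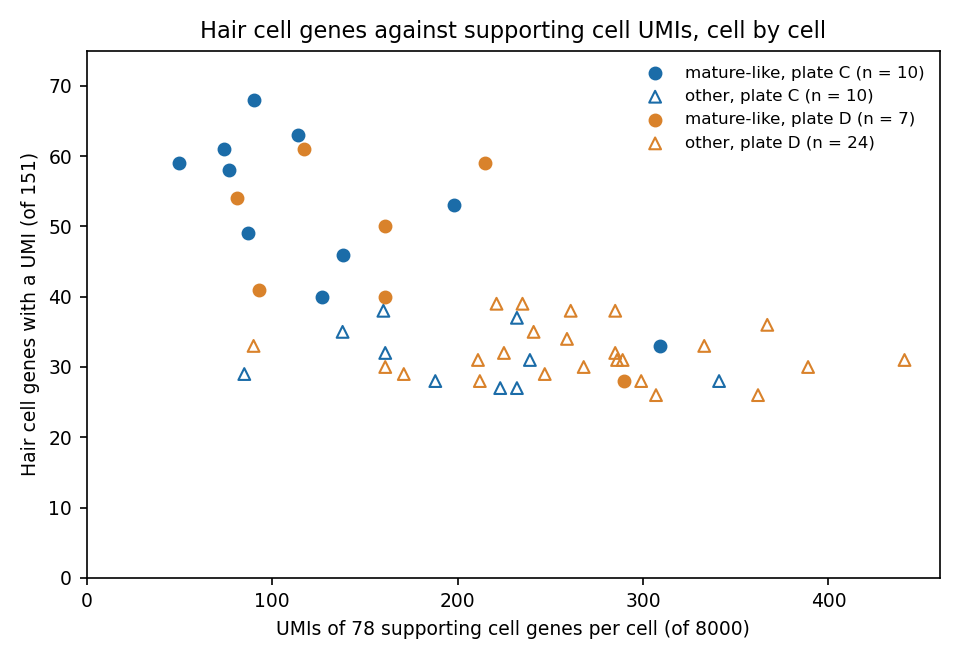
Each cluster 2 cell by the UMIs of 78 supporting cell genes among its 8000 thinned UMIs (horizontal axis) and its hair cell genes with a UMI (vertical axis); filled circles are mature-like cells, open triangles the others, and colours the plates. Mature-like cells lie mostly above 40 hair cell genes and left of the others, and 2 of them, 1 per plate, lie among the others near 300 supporting cell UMIs.

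Cell by cell, hair cell genes and supporting cell UMIs had a rank correlation of −0.59 over the 51 cells. Within the mature-like cells it was −0.55 (n = 17) and within the others −0.13 (n = 34). These are descriptions, since the measures share each cell's fixed total and the cells share plates.

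The 15 lowest ratios included Tns1, a focal adhesion protein gene, at 29.4 against 393 CPM, 13.4-fold lower (5.07 to 49.98), and Egfr, the epidermal growth factor receptor gene, at 14.7 against 217 CPM. Anxa2, which binds membranes and calcium, stood at 73.5 against 507 CPM, and Cdo1, a cysteine-metabolizing enzyme gene, at 95.6 against 507 CPM. Hspg2 and Ntn4, the genes of perlecan and netrin 4, are matrix genes in the same set, which also held Klf6, Ifi27l2a, Fxyd6, Man2a1, Slc22a15, Snrpa1, Uspl1 and Vldlr. Car13, a carbonic anhydrase gene, had no UMI in the thinned mature-like cells against 154.4 CPM. However, Car13 had a UMI in 52.9% of those cells before thinning, at 27.5 against 164.6 CPM. Man2a1, Slc22a15, Snrpa1 and Uspl1 also had no UMI in the thinned mature-like cells. Before thinning, Man2a1 had a UMI in 47.1% of the cells of each class, and Uspl1 in 41.2% of mature-like and 35.3% of other cells. Slc22a15 was seen in 23.5% and 47.1%, and Snrpa1 in 23.5% and 38.2%. The draw used gave larger differences at this end of the list than the full counts did: the median log2 ratio of the 15 was −2.50 in the draw used, −1.93 in another and −1.89 in the unthinned sums, where Uspl1 fell short of 2-fold at −0.53. Uspl1 fell short in the other draw as well, at −0.86.

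Of 17 immediate early and stress genes, which dissociation can switch on, Junb, Egr1, Dusp1, Hspa1b and Hspa5 were called lower, but the list's median was −1.82 in plate C and −0.10 in plate D. Per cell its UMIs ran from 9 to 310 with a median of 23 in the mature-like cells and from 7 to 388 with a median of 25.5 in the others, and their part in the class differences was not tested. None of 7 mitochondrially encoded genes was called. Of 16 nuclear genes of oxidative phosphorylation, Ndufv1 and Atp5b were called higher and none lower. Of 7 cell cycle and p53 genes, the inhibitors Cdkn1a and Cdkn1b were called lower. Over all genes, 7.51% were called higher and 7.79% lower. The few called oxidative phosphorylation and cell cycle genes are not read as results about those lists.

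Markers of cell types outside the sensory epithelium were mostly low. Of the leukocyte and erythroid lists, no gene reached 50 CPM, and 8 of 10 leukocyte and 4 of 5 erythroid genes had no UMI at all in the thinned cluster. The neuron list gave 0 to 31 UMIs per mature-like cell and 0 to 41 in the others, with Epha4 called higher and Gata3, also an inner sulcus gene, lower. The Schwann and satellite glia list gave 1 to 10 and 0 to 19 UMIs, with Cnp higher and Erbb3 lower. It includes Sox10, also a general supporting cell gene, which alone gave up to 10 and 17 UMIs per cell in the mature-like and other cells. The fibroblast list gave 0 to 10 and 0 to 13 UMIs, with Lum lower. The pericyte gene Rgs5 was at 169.1 against 3.68 CPM, but 1 cell held 87% of its mature-like UMIs, which kept it from being called. In the stria vascularis list, Kcnq1 was called lower, but 2 of the 3 genes at 50 CPM or more were higher in both plates. That list's median log2 ratio was 0.76. The shares over all genes were 7.51% called higher and 7.79% called lower. The few called genes of these cell types are not read as results about those lists.

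Set beside the rest of the series, the other cells of cluster 2 held fewer hair cell transcripts than a cluster the authors named for supporting cells, for some genes but not all. In the control cells deep enough to thin, Ptprq and Cdh23 had no UMI, and a control cell showed a median of 23 hair cell genes. In cluster 1, which the authors named Reprogammed Sup Cells 1 (54 cells, all GAP), Ptprq stood at 183 CPM, between the 51.5 CPM of the other cluster 2 cells and the 1471 CPM of the mature-like cells. Myo6 and Pou4f3 followed the same order, with 1461 and 660 CPM in cluster 1, while Myo7a did not, with 122.7 CPM in cluster 1 against 254 CPM in the other cluster 2 cells. Epyc was at 3037 CPM in the other cluster 2 cells, 1164 CPM in cluster 1, 2417 CPM in controls and 765 CPM in the mature-like cells. The cluster 1 cells that did not meet the rule showed a median of 36 hair cell genes, above the median of 31 of the other cluster 2 cells. Clusters were drawn by the authors on these same counts, so these levels are descriptions.

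**Figure D5:**
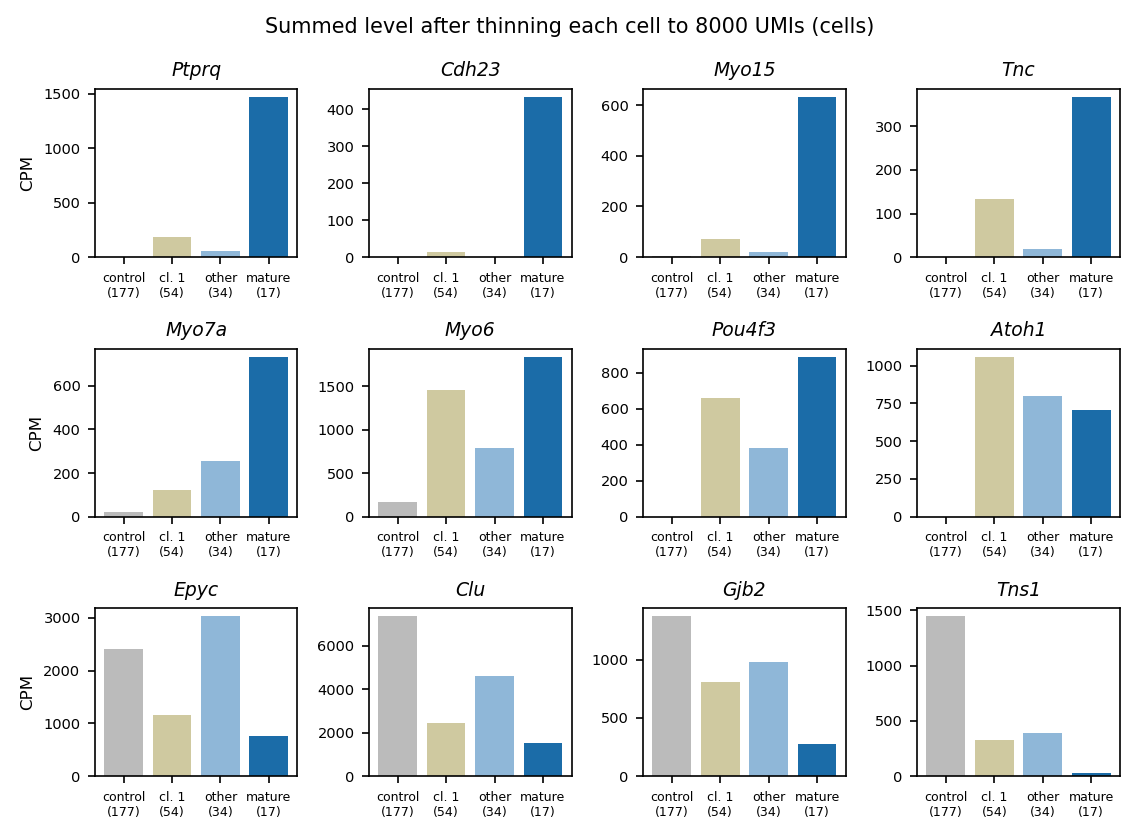
Summed level in CPM after thinning each cell to 8000 UMIs (vertical axes, each starting at 0) of 12 genes in controls, cluster 1 (cl. 1), the other cells of cluster 2 and the mature-like cells, with the number of cells under each bar; bars are single sums without an error bar. Ptprq, Cdh23 and Myo15 are tall in the mature-like cells alone, Myo6 and Pou4f3 are second highest in cluster 1, and Epyc is highest in the other cells of cluster 2.

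The plates offer a reading of the same measure in cells that did not choose the genes. Of 491 genes at least 2-fold higher in the mature-like cells of plate C, 64.6% had the same direction in plate D, against 46.6% of all genes there. Of 189 genes chosen in plate D, 72% had the same direction in plate C, against 46.6%. For lower genes the shares were 69% against 51% from C to D and 56.3% against 43.6% from D to C. The shares of all genes were taken over those at 50 CPM or more in the choosing plate, without the conditions on cells. Equal levels in both classes counted as disagreement, for chosen genes and all genes alike. How far the gaps rest on this was not tested. The median log2 ratio of the 491 genes was 1.45 in plate C, where they were chosen, and 0.37 in plate D. The plates share the rule that made the classes, so this is agreement between plates and not between animals.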

How the data were processed

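Single cells were sequenced with SMART-MATQ, per the labels' protocols. The deposited table holds raw UMI counts of exonic reads for 48440 genes in 360 cells. The submitters' processing notes name STAR, HTSeq and the mm10 build, with no versions or settings given in the sources used. The cluster number of 341 cells is the authors' own. Cells held 6985 to 60218 UMIs, and no 2 cells were identical.

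UMIs of each cell were drawn without replacement to a total of 8000 (seed 1), which kept every cluster 2 cell and left out 3 cells of the series. Counts were summed per class and given as CPM, and log2 ratios had 20 CPM added. Intervals are exact 95% conditional binomial for ratios and Clopper-Pearson for shares. The floor for an absent gene is 3 UMIs over a class, 22.1 CPM in the mature-like class and 11.0 CPM in the other. Gene positions come from GENCODE (GRCm38). The script was tested on simulated data. Python 3.11.15 with numpy 2.4.6, pandas 2.3.3 and scipy 1.17.1 was used, and edgeR 4.0.16 for an alternative scaling. No doublet caller was run.

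The members, gene lists (27, 419 of 420 genes in the table) and rules were chosen with earlier results of these data known. Named genes are the defining, transgene, driver and sort genes, the 15 highest and 15 lowest called ratios, predicted genes left out, and the 6 members of each list with most UMIs. Other called members are named with their lists, and a few uncalled genes were added after their values were seen. Some named genes are not reported here.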

Additional observations from a re-analysis of the deposited data

Results flagged for a closer look

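The rule was also met outside cluster 2, in cells that the comparison does not use. No control cell met it (0 of 180, which allows a share of up to 1.67% when taken as 3 cells of the total, with an exact 95% interval up to 2.03%). Of the 17 GAP cells to which the authors gave no cluster, 10 met the rule (58.8%, exact 95% interval 32.9 to 81.6%), 9 of them from plate C. Those 10 cells showed a median of 46 hair cell genes at equal depth, with Cdh23 at 300 CPM and Ptprq at 662 CPM, and had a median of 48226.5 UMIs, above the highest depth in cluster 2 (44672). After thinning, 4 of the 17 met the rule.

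In the cluster named Reprogammed Sup Cells 1, 13 of 54 cells met the rule (24.1%, 13.5 to 37.6%), 10 of them from plate C, and 4 after thinning. They showed a median of 41 hair cell genes, against 36 in the 41 cells of that cluster that did not meet it. In the cluster named Reprogrammed Supp Cells 2, 4 of 20 cells met the rule (20%, 5.73 to 43.7%) and 1 after thinning, and these 4 showed a median of 32 hair cell genes, against 33.5 in the other 16.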

How the results depend on the processing

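Over 23 alternatives, the 15 highest genes kept their direction in 345 of 345 values and the 15 lowest in 345 of 345, at least 2-fold in 344 and 329. The rule for a called gene already required the same direction in plates C and D. The direction without plate C or without plate D was therefore fixed in advance. The other alternatives reuse cells in which these genes were chosen as extremes. The number of mature-like cells was 10 when the rule was applied to thinned counts and 34 when 1 defining gene was enough, and plates C and D alone hold 10 and 7. The count of higher genes was 189 without plate C and 276 with a filter of 100 CPM. The number of genes lower in mature-like cells was 696 with classes from thinned counts, 254 with 1 defining gene, 785 without plate C and 254 with the filter of 100 CPM. The filter tests fewer genes, and the other causes were not tested. The difference in the median number of hair cell genes, 22, became 27 with classes from thinned counts, 6.5 with 1 defining gene, 17 at 4000 UMIs and 28.5 without thinning by either way of summing. The median log2 ratio of the hair cell lists was 0.70 with 1 defining gene and 0.71 with no filter on level.

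The median log2 ratio of 11 of 24 lists took the opposite sign under at least 1 alternative, among them the lists of transgene, outer hair cell, pillar and Deiters cell, immediate early and neuron genes. Of 68 named genes called higher or lower, 65 kept their sign throughout and Egr1, Erbb3 and Cnp did not, while 72 of those not called took the opposite sign or 0 at least once. Among lists and genes at least 2-fold apart in the values reported, the fibroblast list was at 0.50 with 3 defining genes required and 0.50 with Tmc1 left out of the rule, and 0.18 at 4000 UMIs. The list of endothelial and pericyte genes was at −0.029 at 4000 UMIs and −0.24 with no filter. Pcp4 was at −0.15 without plate D. With 1 defining gene enough, Egr1 was at 0.23, Nefh at 1.31, Erbb3 at 0.14 and Met at 0.15, and at 4000 UMIs Nefh was at 0.89, Cnp at −0.51 and Met at 0.23. TMM scaling moved the median of all genes from 0.07 to −0.06. With plate as a block, taking the mean of the ratios within plates C and D, 432 genes were higher and 476 lower, and the hair cell lists had a median of 1.29 and the supporting cell lists −0.74. This block, limiting the others to cells with 0 defining genes, and asking for 2 UMIs of 2 defining genes, were chosen after seeing the data. No paired analysis was possible because the classes were compared without a test, and a well number shared by 2 plates does not tie their cells together. With 17 cells of 8000 UMIs, a gene at or under 22.1 CPM in the mature-like class rests on 3 UMIs or fewer.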
